A study of Mus musculus with 48 samples.

Results

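The genes described here are the constitutive subunits of the proteasome and the activators, inhibitor and assembly chaperones that carry the same gene prefix. They were chosen by symbol (Psma, Psmb, Psmc, Psmd, Psme, Psmf or Psmg followed by a number), leaving out the immunoproteasome subunits Psmb8, Psmb9 and Psmb10, and by a level of at least 1 FPKM in at least 3 of 48 mouse lungs. FPKM counts sequenced fragments per length of the transcript and relative to all fragments mapped in the library. Of 45 such symbols among the 47561 genes listed, 42 reached that level, and these 42 were above it in all 48 mice. The 3 others were Psma8, an alpha subunit of the testis, and Psmb11, a beta subunit of the thymus, both under 1 FPKM in every mouse, and Psmd10, which lies on chromosome X and is listed at 0 like all 4216 genes of chromosomes X, Y and M. The choice by name uses no measured response, so strain, sex, injection and air could each be tested.

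Adult C3H/HeN (C3H) and C57Bl/6 (C57B) mice of both sexes received a single intraperitoneal injection of saline or of 25 mg/kg aurothioglucose (ATG), a drug containing gold that blocks the enzyme thioredoxin reductase, and then stayed in room air or in hyperoxia (at least 95% oxygen) for 96 h. Whole lung RNA was sequenced from 3 mice in each of the 16 combinations, 1 library per mouse, and the male and female groups at baseline (saline and room air) are C3HM, C57BM, C3HF and C57BF. By the sample labels 24 mice received saline, although the series text mentions ATG alone, and the sources differ on the substrain of C57Bl/6. In whole lung, fewer cells of a type and less RNA per cell cannot be told apart.

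The proteasome degrades proteins that carry ubiquitin chains. Its 20S core is a barrel of alpha rings, which gate the entry, around beta rings, in which Psmb5, Psmb6 and Psmb7 hold the chymotrypsin-like, caspase-like and trypsin-like active sites. The 19S particle caps the core: ATPases of its base (Psmc genes) unfold the substrate, Psmd1 and Psmd2 form the scaffold, Psmd4 binds ubiquitin, and the lid removes the chains through the deubiquitinase Psmd14. Chaperones (Psmg1 to Psmg4 for the core, Psmd5 and Psmd9 for the base) assist assembly and leave, and the activators Psme1 and Psme2 (PA28 alpha and beta, both induced by interferon), Psme3 (PA28 gamma, in the nucleus) and Psme4 (PA200) bind the core in place of the 19S particle. Psmf1 (PI31) was named as an inhibitor of the core. In cells short of proteasome activity, the transcription factor Nfe2l1 binds antioxidant response elements (ARE) and raises the genes of core and 19S particle together, and Nfe2l2 binds the same elements under oxidants.

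Every member was well above the level required, and the subunits did not stand at 1 common level. Medians over the 48 mice ran from 11.4 FPKM for Psme4 to 186 FPKM for Psmb4, a 16.2-fold range. The beta ring was more even than the alpha ring, with medians from 86.6 FPKM (Psmb2) to 186 FPKM (Psmb4). Alpha ring medians ran from 22.4 FPKM (Psma5) to 144 FPKM (Psma6), although an alpha ring holds each subunit once. Psmd8, at a median of 120.5 FPKM, stood above the other lid subunits, which ran from 25.3 FPKM (Psmd11) to 67.2 FPKM (Psmd13). Assembly chaperones were low, from 13 FPKM (Psmg1) to 34.8 FPKM (Psmg4), and among the activators Psme1 was high at 106 FPKM. FPKM is scaled per length, but in 11 members over 10% of the 30-base stretches of their transcripts recur in other genes, which leaves the levels of these uncertain. The shares were 74.7% for Psmb5, 61.0% for Psma5, 51.0% for Psme2 and 39.9% for Psma3. Psme2b, a near copy of Psme2, was listed at 170.1 FPKM on average at baseline against 17.8 FPKM for Psme2, and Gm13835, which shares sequence with Psma3, at 115 FPKM against 28.3 FPKM.

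**Figure D1:**
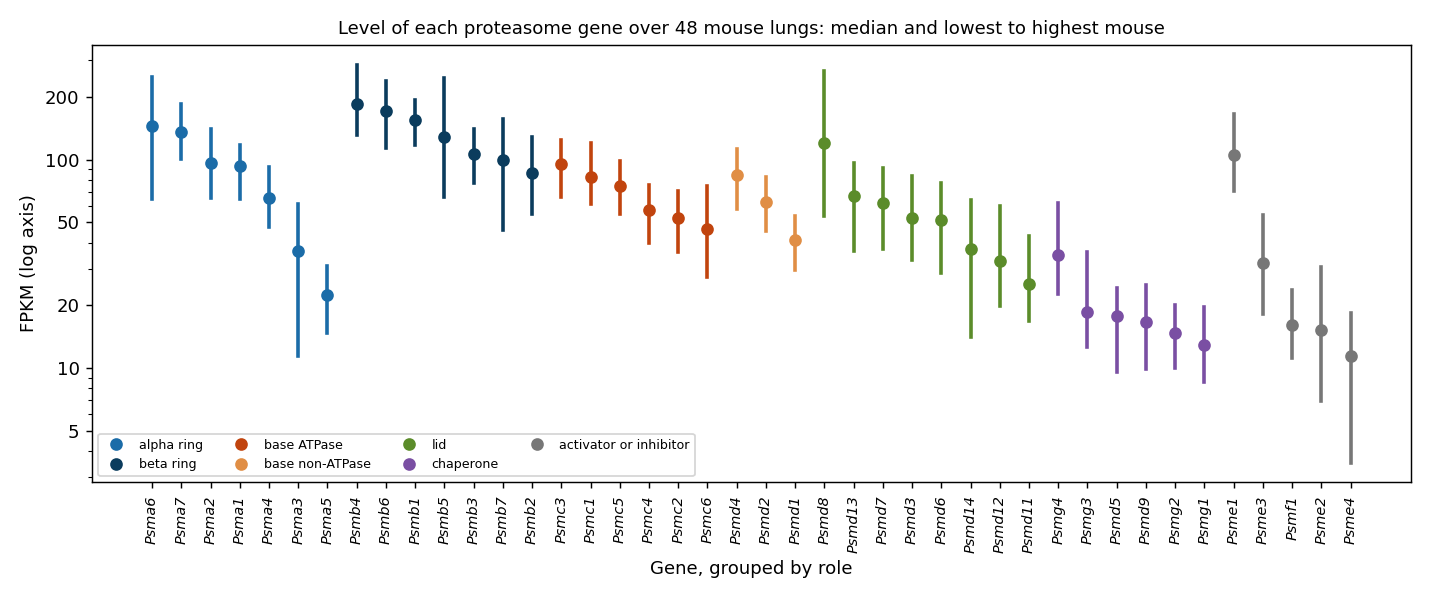
FPKM (log axis) of the 42 genes, grouped by role along the x axis. Points are medians and lines run from the lowest to the highest of 48 mice, with Psmb4 at the top of the medians (186 FPKM) and Psme4 at the bottom (11.4 FPKM).

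Upstream sequences are shown for Psmb5 and Psmb6, active site subunits that hold an ARE core in this window, and for Psmd8, the member with the largest difference between hyperoxia and room air, which holds none. They are the 250 bases before the RefSeq start, in build GRCm38.p6, read 5′ to 3′ on the strand of the gene, with the ARE core (TGACNNNGC, either strand) in capitals.
Psmb5, chr14:54617996-54618245, minus strand: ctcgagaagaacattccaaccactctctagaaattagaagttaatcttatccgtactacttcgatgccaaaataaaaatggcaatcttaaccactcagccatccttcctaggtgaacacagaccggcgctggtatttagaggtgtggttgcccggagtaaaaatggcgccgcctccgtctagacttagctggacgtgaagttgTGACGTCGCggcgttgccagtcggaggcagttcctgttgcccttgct
Psmb6, chr11:70525107-70525356, plus strand: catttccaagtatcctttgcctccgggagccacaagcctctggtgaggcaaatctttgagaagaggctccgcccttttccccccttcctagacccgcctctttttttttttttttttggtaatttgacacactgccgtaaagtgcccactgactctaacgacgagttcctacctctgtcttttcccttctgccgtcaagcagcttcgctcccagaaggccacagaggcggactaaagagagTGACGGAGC
Psmd8, chr7:29180674-29180923, minus strand: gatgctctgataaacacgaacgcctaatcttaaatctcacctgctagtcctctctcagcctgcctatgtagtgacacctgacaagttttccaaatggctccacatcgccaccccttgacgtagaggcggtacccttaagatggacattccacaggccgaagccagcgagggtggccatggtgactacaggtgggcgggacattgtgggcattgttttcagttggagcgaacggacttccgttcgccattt
In Psmb5 the core TGACGTCGC begins 47 bases before the start, and in Psmb6 the core TGACGGAGC begins 9 bases before it. RefSeq promoters were found for 35 of the 42 members (Psmb1, Psmb2, Psmb7, Psmc3, Psmd3, Psmd7 and Psmg2 had no entry), and windows of 250 bases before to 50 bases after the start were searched on both strands. The ARE core was present in 6 of the 35, namely Psmb5, Psmb6, Psmc6, Psmd9, Psmd12 and Psme4 (17.1%, against 14.0% of the promoters of 27025 genes). A CCAAT box was present in 11 of the 35 (31.4% against 41.1%) and a GC box (GGGCGG) in 21 (60% against 38.2%), among them Psmd8, at 59 bases before the start. A match describes the letters in the window and not a bound site.

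The FPKM of a library summed to between 510933 and 748290, and read depth is unknown, so the precision of each value comes from the spread between mice. Scgb1a1, a secretory protein of club cells, took 10.4% to 30.2% of this sum in saline room air and 1.20% to 6.46% in saline hyperoxia. Markers of resident and blood cells moved with the air. In the 12 saline room air and then the 12 saline hyperoxia mice, the summed FPKM ranged over 69658 to 230687 and then 6935 to 42119.6 for 3 club cell markers (3 of 3 lower), 25727 to 49358 and 5754 to 21839.7 for 6 alveolar type 2 markers (5 lower, 1 higher), 131 to 763 and 158 to 6206 for 4 neutrophil markers (4 of 4 higher), and 30.7 to 83.9 and 105 to 252 for 5 macrophage markers (4 higher, 1 lower). The T cell and B cell markers (4 of 4 lower each) and 4 of the 5 red blood cell markers were lower, and 1 red blood cell marker was listed at 0 throughout. The part of these cells in the results for the proteasome was not tested. Rn18s-rs5 and Malat1, taken as a gauge of RNA quality, summed to 4512 to 27164 FPKM in saline room air and 2701 to 11008 FPKM in saline hyperoxia. Both were lower in hyperoxia, and within saline hyperoxia both were higher in C3H than in C57B. The part of RNA quality in the results was not tested either. Mice 1 and 3 of C3HM stood apart from the other mice at baseline, and counts of members that rest on them are also given without them.

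Hyperoxia was compared with room air in the 24 saline mice, averaged over strain and sex. Transcripts of the proteasome were higher in hyperoxia across core, base and lid. Of the 42 members, 33 rose, 2 fell (the activators Psme1 and Psme2) and 7 did not pass the test (limma on log2(FPKM + 1), Benjamini-Hochberg over 16321 genes, threshold 0.05), where 60.1% of all genes tested passed it, 31.8% higher and 28.3% lower. The median log2 difference was 0.38 over the members and 0.01 over all genes tested. With quantile normalization these medians were 0.21 and -0.002, and with median ratio scaling 0.31 and -0.03. Among the 9843 genes kept by a stricter filter at 5 FPKM, 4026 were higher and 2622 lower, with a median of 0.10. In 11 members no hyperoxia mouse overlapped a room air mouse and all 11 were higher, against 5.61% of all genes higher without overlap and 2.13% lower, where no member lay. Without mice 1 and 3 of C3HM 32 members rose and 2 fell.

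In the alpha ring 6 of 7 subunits rose, with a median log2 difference of 0.27. Psma3 ranged from 11.4 to 36 FPKM (median 31.7) in room air and from 37 to 60.4 FPKM (median 49.4) in hyperoxia. Every hyperoxia mouse was above every room air mouse. The log2 difference was 0.83 ± 0.12 (SE), with an adjusted p of 6.85e-06. Gm13835, which shares sequence with Psma3, averaged 115 and then 197 FPKM. Psma6 ranged from 65 to 144 FPKM (median 112) in room air and from 139.8 to 249 FPKM (median 165) in hyperoxia, with a log2 difference of 0.69. The groups overlapped between 139.8 and 144 FPKM. The others that rose did so by 0.16 (Psma1, whose call was lost without 13 of 24 mice left out singly) to 0.27, and Psma7 (log2 difference 0.09, 95% interval -0.08 to 0.26) did not pass the test.

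The active site subunits of the beta ring were all higher in hyperoxia. Psmb7, with the trypsin-like site, ranged from 46.1 to 83.4 FPKM (median 75.3) in room air and from 104 to 142 FPKM (median 121) in hyperoxia, a log2 difference of 0.74 ± 0.07 (SE) with an adjusted p of 8.57e-09. The groups did not overlap. Its gene overlaps Nek6 on the other strand, and Nek6 was at 12.6 FPKM on average in room air and 29.2 FPKM in hyperoxia. In all, 15 members overlap a gene on the other strand, and whether the counting used strand is not given in the sources used here. On the same strand, the lid gene Psmd13 overlaps Gm15542, at 39.7 FPKM on average in room air and 26.7 FPKM in hyperoxia. The part of such overlaps in the results was not tested. Psmb5, with the chymotrypsin-like site, ranged from 76.3 to 149 FPKM (median 107) in room air and from 117 to 206 FPKM (median 156) in hyperoxia, a log2 difference of 0.56 ± 0.06. Psmb6, with the caspase-like site, ranged from 119.7 to 194 FPKM (median 145) in room air and from 166 to 219.6 FPKM (median 188) in hyperoxia, a log2 difference of 0.38 ± 0.06. In both of these the lower hyperoxia mice overlapped the upper room air mice. Gm3375, which shares sequence with Psmb5, averaged 14.8 FPKM in room air and 20.1 FPKM in hyperoxia. Psmb2, Psmb3 and Psmb4, beta subunits without an active site, rose by 0.37, 0.23 and 0.37 on the log2 scale, and Psmb1 (0.12, adjusted p = 0.0573) did not pass.

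In the base, 5 of 6 ATPases and all 3 non-ATPase subunits rose. Psmc6 led the ATPases and ranged from 29.1 to 47.1 FPKM (median 37.8) in room air and from 46.2 to 70.5 FPKM (median 62.5) in hyperoxia, with a log2 difference of 0.63 ± 0.06. The ranges overlapped between 46.2 and 47.1 FPKM. Psmc4 ranged from 43.8 to 57 FPKM (median 49.2) in room air and from 54.9 to 75.6 FPKM (median 64.1) in hyperoxia, a log2 difference of 0.38 ± 0.05 with 11 of 12 hyperoxia mice above all room air mice. Psmc5 had a log2 difference of 0.10 (95% interval -0.03 to 0.22) and did not pass. The scaffold subunit Psmd2 ranged from 45.4 to 57.9 FPKM (median 52.2) in room air and from 67.5 to 82.7 FPKM (median 75.8) in hyperoxia, without overlap. The ubiquitin receptor Psmd4 ranged from 61.8 to 93.6 FPKM (median 69.3) in room air and from 73.5 to 107 FPKM (median 94.9) in hyperoxia, a log2 difference of 0.37 ± 0.06, and its groups overlapped.

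In the lid 8 of 8 subunits rose, and the median log2 difference of 0.62 was the highest of the role groups. Psmd8, which joins the lid late in its assembly, ranged from 53.6 to 89.8 FPKM (median 80.1) in room air and from 156 to 266 FPKM (median 197) in hyperoxia. All 12 hyperoxia mice lay far above all 12 room air mice, and the difference was 1.38 ± 0.06 (SE) on the log2 scale, or 2.61-fold, with an adjusted p of 5.86e-13. Of its 30-base stretches 2.29% recur in other genes. The deubiquitinase Psmd14 ranged from 14.2 to 37.4 FPKM (median 30.3) in room air and from 36.8 to 60.5 FPKM (median 47.7) in hyperoxia, a log2 difference of 0.77 ± 0.10, and 11 of 12 hyperoxia mice lay above all room air mice. Psmd12 rose by 0.67 and Psmd11 by 0.66, both without overlap, and Psmd3, Psmd6, Psmd7 and Psmd13 rose by 0.26 to 0.58. The lid did not rise in proportion. Psmd8 made up 20.01% to 24.4% (median 21.9%) of the summed lid FPKM in room air and 31.1% to 38.4% (median 33.2%) in hyperoxia, and these ranges did not overlap.

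Of the 6 chaperones of assembly 2 passed the test in saline mice, with a median log2 difference of 0.17, whereas all 6 rose in the ATG mice described later, with a median of 0.45. Psmd5 (0.41) and Psmg3 (0.26) rose, while Psmd9 (0.22), Psmg4 (0.13), Psmg1 (0.06) and Psmg2 (-0.06) did not pass the test in the saline mice. Psmg1, which pairs with Psmg2 to build the alpha ring, ranged from 9.55 to 14.9 FPKM (median 12.5) in room air and from 9.40 to 17.9 FPKM (median 13.1) in hyperoxia. The groups overlapped, with 4 hyperoxia mice above and 1 below all room air mice.

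Activators moved in both directions. Psme1 ranged from 86.1 to 166 FPKM (median 111) in room air and from 70.7 to 115 FPKM (median 86.6) in hyperoxia, a log2 difference of -0.41 ± 0.07 (SE) with an adjusted p of 4.76e-05. Psme2, its partner in the PA28 ring, ranged from 10.3 to 28.6 FPKM (median 16.7) in room air and from 7.32 to 18.9 FPKM (median 12.3) in hyperoxia, a log2 difference of -0.52 ± 0.12. Both pairs of groups overlapped, with the highest mice in room air and the lowest in hyperoxia. Psme2b, which shares sequence with Psme2, was also lower on average, at 170.1 FPKM and then 117 FPKM. Psme3, the nuclear PA28 subunit, moved the other way, from 18.2 to 33.5 FPKM (median 27.2) in room air and from 31.6 to 53 FPKM (median 41.7) in hyperoxia, a log2 difference of 0.59 ± 0.08. Psme4 ranged from 3.52 to 11.7 FPKM (median 8.59) in room air and from 11.4 to 16.4 FPKM (median 13.6) in hyperoxia, a log2 difference of 0.74 ± 0.11, and in these 2 genes only the edges of the groups met. The inhibitor Psmf1 rose by 0.36. Psme1 made up 54.8% to 74.9% (median 63.4%) of the summed FPKM of these 5 genes in room air and 42.2% to 58.8% (median 49.3%) in hyperoxia. Psme2b is not in this sum, and the part of the sequence it shares with Psme2 in these percentages was not tested.

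Summed over the 14 subunits of the core and the 17 of the 19S particle, proteasome transcripts ranged from 2024 to 2526 FPKM (median 2195) in room air and from 2526 to 3495 FPKM (median 2975) in hyperoxia. The lowest hyperoxia mouse was just above the highest room air mouse. As a percentage of all FPKM in the library, they ranged from 0.275 to 0.389% (median 0.351) and from 0.471 to 0.639% (median 0.562). The mean FPKM per subunit of the 19S particle, divided by that of the core, was 0.536 ± 0.0418 (SD, n = 12) in room air and 0.613 ± 0.0289 in hyperoxia. The groups overlapped, with ranges of 0.469 to 0.615 and 0.571 to 0.658. Psmd8, which rose most, is among the 17 subunits, and its part in this ratio was not tested. In the ATG mice described next this ratio was 0.550 ± 0.0344 and 0.580 ± 0.0374, with broad overlap.

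The same comparison was made in the other 24 mice, which received ATG in place of saline and share no animal with the mice above. This comparison was added after the saline results were seen. Of the 42 members, 40 rose and none fell (limma over 16206 genes, with 41 members at an unadjusted p under 0.05 in either direction), where 61.8% of all genes passed the test, 35.8% as higher and 26% as lower. All 33 members that rose in saline mice rose here, and so did the 7 that had not passed. The median log2 difference was 0.49 over the members and 0.06 over all genes. In 23 members the hyperoxia mice lay above the room air mice without overlap, against 8.82% of all genes, and none lay below (4.05% of all genes).

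Psmd8 again differed most. It ranged from 71.6 to 89 FPKM (median 80.5) in room air and from 151 to 246 FPKM (median 197) in hyperoxia, a log2 difference of 1.30 ± 0.04, and it made up 21.4% to 24.1% (median 22.4%) and then 28% to 36.1% (median 32.2%) of the lid. Psma3 (0.99), Psmd14 (0.94), Psmc6 (0.89) and Psmb5 (0.88) followed. The chaperone Psmg2 ranged from 10.01 to 16.5 FPKM (median 13.6) in room air and from 15.3 to 20.1 FPKM (median 17.2) in hyperoxia, a log2 difference of 0.38 ± 0.07, where it had been -0.06 in the saline mice. Psme1 (-0.06, adjusted p = 0.476) and Psme2 (-0.36, adjusted p = 0.0518) did not pass the test in the ATG mice. Within the strains, C57B mice given ATG had lower Psme1 (-0.28) and Psme2 (-0.70) in hyperoxia, both past the threshold, beside 37 members that rose (56.2% of all genes passed the test). In C3H mice given ATG 37 members rose and none fell (limma, 37 at an unadjusted p under 0.05 in either direction, where 47.9% of all genes passed), and Psme1 was 0.16 (adjusted p = 0.209).

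**Figure D2:**
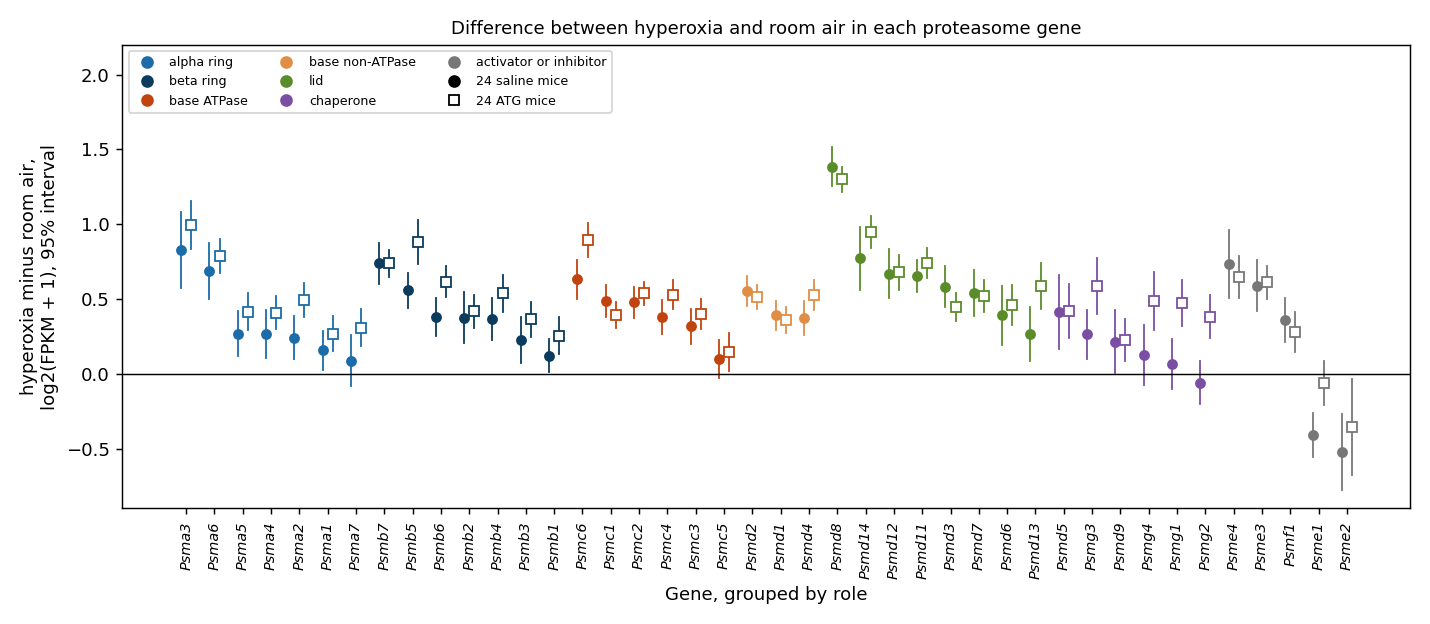
Difference between hyperoxia and room air on the log2(FPKM + 1) scale (y axis) for the 42 genes grouped by role (x axis), with 95% intervals from limma; filled circles are the 24 saline mice and open squares the 24 ATG mice. Psmd8 lies highest in both (1.38 and 1.30), and only Psme1 and Psme2 lie clearly below 0 in saline mice (-0.41 and -0.52).

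**Figure D3:**
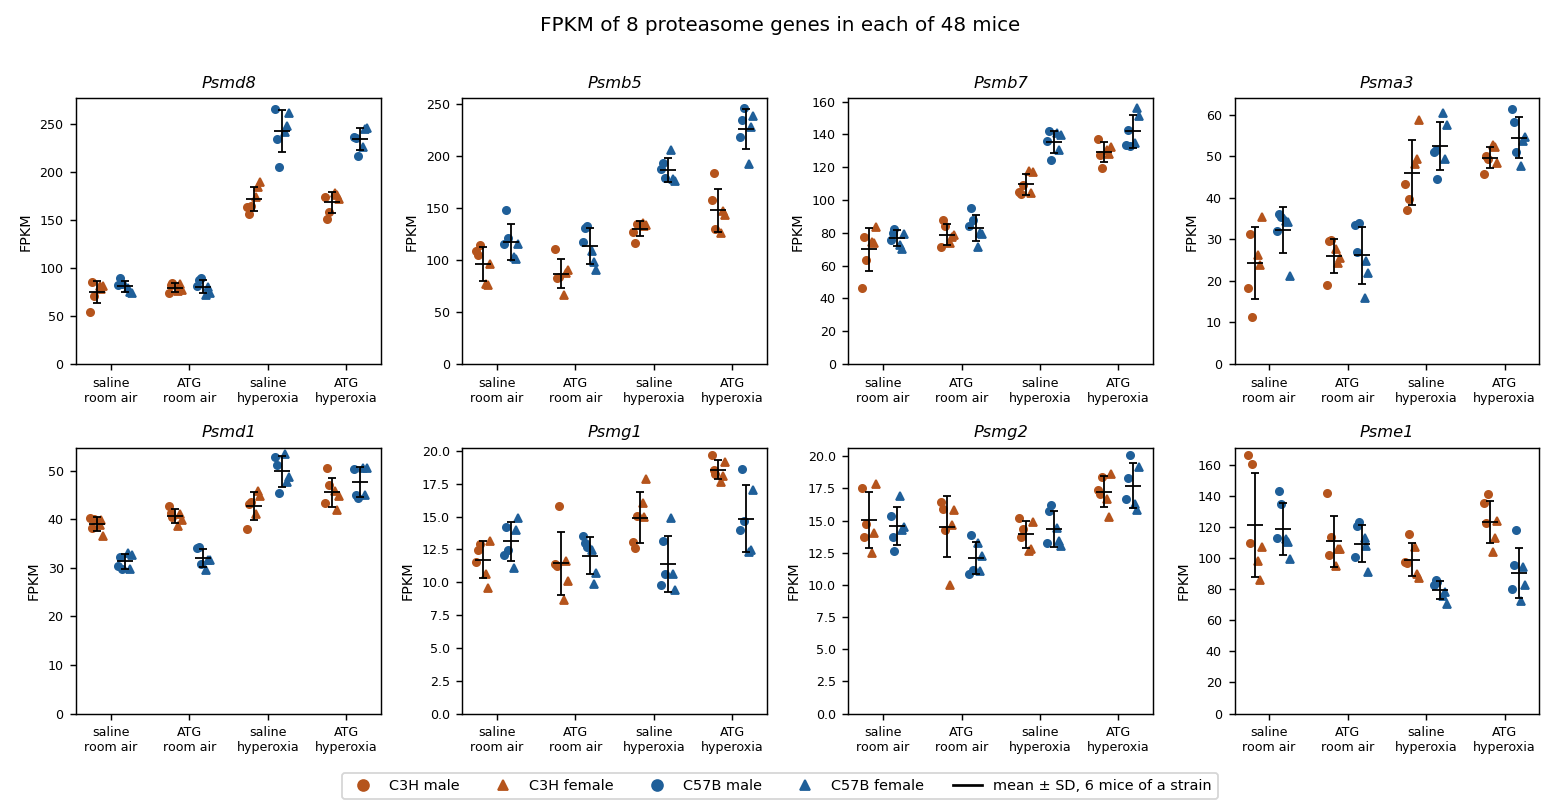
FPKM (y axis, from 0) of Psmd8, Psmb5, Psmb7, Psma3, Psmd1, Psmg1, Psmg2 and Psme1 in each of 48 mice by injection and air; circles are males, triangles females, and black bars the mean ± SD of the 6 mice of a strain. For Psmd8 the 24 hyperoxia mice lie between 151 and 266 FPKM and the 24 room air mice between 53.6 and 89.8 FPKM.

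The response was next compared between strains. Within C3H, hyperoxia raised 25 members and lowered 1 (20 and 0 without mice 1 and 3 of C3HM, and 37.8% of all genes passed the test), and within C57B it raised 32 and lowered 2 (55.5%). Hyperoxia mice lay above room air mice without overlap in 16 members within C3H (10.2% of all genes) and in 22 within C57B (16.1%), and below them in no member within C3H (4.13%) and in 1 within C57B, Psme1 (16.3%). The test of the difference between strains (C3H minus C57B) passed for 3 members, Psmd1, Psmd11 and Psmg1, where 11.5% of all genes passed, 8.71% with the larger value in C3H and 2.81% with the larger in C57B. Over the members the median of this difference was -0.12, and over all genes tested it was 0.15.

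Psmd1, the scaffold subunit that holds the ubiquitin receptor Adrm1, rose in C57B and did not pass the test in C3H. In C3H it ranged from 36.6 to 40.3 FPKM (median 39.3) in room air and from 37.9 to 45.7 FPKM (median 43.3) in hyperoxia, and in C57B from 29.7 to 33 FPKM (median 31.4) and from 45.4 to 53.5 FPKM (median 49.95). The C57B mice lay below all C3H mice in room air and nearly all of them above the C3H mice in hyperoxia. The log2 difference was 0.13 ± 0.07 within C3H (adjusted p = 0.141) and 0.65 ± 0.07 within C57B (adjusted p = 9.69e-08), and the difference between these was -0.53 ± 0.09 with an adjusted p of 0.00174. In the ATG mice Psmd1 ranged from 38.5 to 42.7 FPKM (median 40.7) in room air and from 41.8 to 50.4 FPKM (median 45.3) in hyperoxia in C3H, and from 29.6 to 34.3 FPKM (median 31.6) and from 44.4 to 50.6 FPKM (median 47.7) in C57B. The strains were separate in room air and overlapped in hyperoxia. There the difference between strains was -0.40 ± 0.08 (adjusted p = 0.00286), although Psmd1 also rose within C3H (0.16).

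Psmd11, a lid subunit, ranged from 18.1 to 23.3 FPKM (median 21.2) in room air and from 27.3 to 31.7 FPKM (median 29.5) in hyperoxia in C3H, and from 18.9 to 22.9 FPKM (median 20.9) and from 34.8 to 42.2 FPKM (median 36.9) in C57B. The strains overlapped in room air and were separate in hyperoxia. The difference between strains was -0.35 ± 0.10 (adjusted p = 0.0330) in saline mice and -0.32 ± 0.10 (adjusted p = 0.0393) in ATG mice. Psmd8 had a difference of -0.38 in saline mice, short of the threshold (adjusted p = 0.0542), and of -0.46 in ATG mice, past it (adjusted p = 0.000737). In both sets its rise was the larger in C57B, 2.98-fold against 2.29-fold in saline mice and 2.89-fold against 2.10-fold in ATG mice.

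Psmg1 went the other way. It ranged from 9.55 to 13.1 FPKM (median 12) in room air and from 12.6 to 17.9 FPKM (median 15) in hyperoxia in C3H, and from 11.1 to 14.9 FPKM (median 13.2) and from 9.40 to 14.9 FPKM (median 10.6) in C57B. Most C3H mice were higher and most C57B mice lower in hyperoxia, with overlap in both, and the difference between strains was 0.52 ± 0.16 (adjusted p = 0.0407) in saline mice and 0.40 ± 0.15 (adjusted p = 0.0755) in ATG mice. In the ATG mice 5 members passed this test (13.3% of all genes did), with Psmg4 (0.68) and Psme1 (0.44) on the side of C3H beside Psmd1, Psmd8 and Psmd11 on the side of C57B. The calls of Psmd11 and Psmg1 in saline mice were lost when single mice were left out (10 and 16 of 24 mice), whereas that of Psmd1 was kept without any one of them. With scaling by the median ratio, which moved the median over all genes from 0.15 to 0.00 and the share of higher among all calls from 75.6% to 46.5%, 11 members had the smaller response in C3H and none the larger. Without mice 1 and 3 of C3HM 8 had the smaller and 1 the larger.

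**Figure D4:**
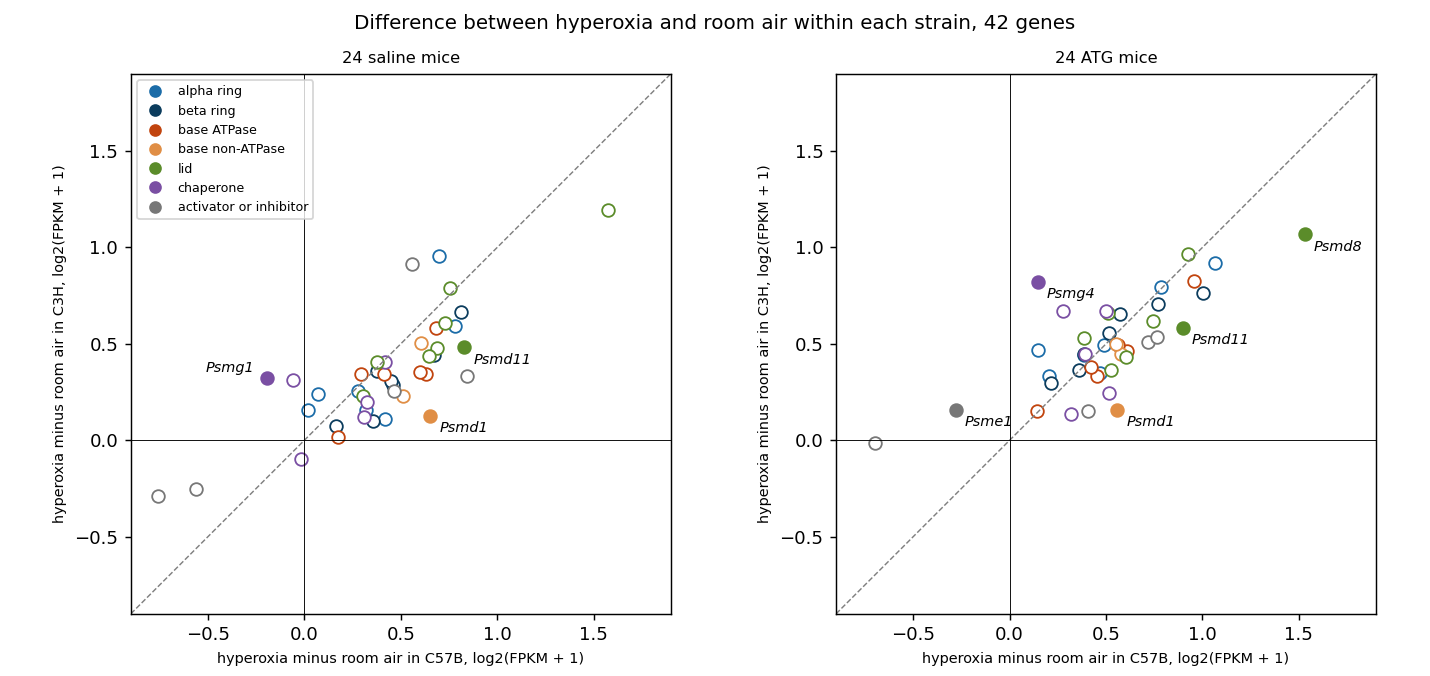
Difference between hyperoxia and room air within C57B (x axis) and within C3H (y axis), on the log2(FPKM + 1) scale, for 42 genes in the 24 saline mice (left) and the 24 ATG mice (right). Filled points passed the test of the difference between strains and are named; points under the dashed line of equality rose more in C57B, such as Psmd1 in both panels.

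Strains were also compared within hyperoxia. In saline mice, 11 members were lower and 4 higher in C3H than in C57B, where 27.2% of all genes passed, 11.1% lower and 16.1% higher. Psmb5 ranged from 117 to 136 FPKM (median 133) in C3H and from 176 to 206 FPKM (median 183) in C57B, a log2 difference of -0.52 ± 0.08 (adjusted p = 7.08e-05). Psmd8 ranged from 156 to 189 FPKM (median 169) in C3H and from 205 to 266 FPKM (median 245) in C57B, a log2 difference of -0.50 ± 0.09 (adjusted p = 0.000320). In neither gene did the strains overlap, nor did they in Psmb7, Psmd3 and Psmd11, the other members lower in C3H without overlap (4.78% of all genes). Of the sampled stretches of Psmb5 transcripts, 74.7% recur in other genes, among them Gm3375. Gm3375 varied widely, at 14.8 ± 9.85 FPKM (SD) in saline room air and 20.1 ± 10.4 FPKM in saline hyperoxia. The part of this shared sequence in the strain differences of Psmb5 was not tested. The chaperone Psmd9 (-0.51), Psma6 (-0.43) and Psme3 (-0.42) were also lower in C3H, as were Psmc6, Psmc1 and Psmd1 by smaller amounts (-0.28 to -0.21). With single mice left out, the call of Psmc1 was lost for 17 of 24 mice, that of Psmd3 for 8, that of Psmc6 for 6 and each other call of this comparison for at most 3.

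Higher in C3H were Psme1 (0.31), Psme2 (0.56), Psmg1 (0.37) and Psmg4 (0.57). Psme1 ranged from 87.2 to 115 FPKM (median 97) in C3H and from 70.7 to 86 FPKM (median 80.2) in C57B, without overlap (5.99% of all genes were higher in C3H without overlap). In ATG mice in hyperoxia the same 4 genes were higher in C3H, with Psma7 and Psmd6, and 6 members were lower, Psmb5 (-0.62), Psmd8 (-0.48), Psmd9 (-0.46), Psme4 (-0.30), Psme3 (-0.24) and Psmd11 (-0.20), where 28.3% of all genes passed. In saline mice in hyperoxia, 3 of 3 club cell markers and 3 of 5 endothelial markers were also higher in C3H, with endothelial sums of 1228 to 1612 FPKM in C3H and 703 to 1016 FPKM in C57B. Their part in these differences was not tested.

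At baseline few members passed a test. Between C3H and C57B, 1 of 42 passed the test, Psmd1, with a log2 difference of 0.31 ± 0.07 (adjusted p = 0.0197) and no overlap (2.14% of all genes were higher in C3H without overlap), where 11.8% of all genes passed, 3.92% higher and 7.87% lower in C3H. No member was lower in C3H without overlap (3.85% of all genes). Without mice 1 and 3 of C3HM, a setting chosen after they were seen to stand apart, no member passed (limma, 6 at an unadjusted p under 0.05). The log2 difference of Psmd1 was then 0.28 (adjusted p = 0.0532), and its call was also lost for 4 of 12 mice left out singly. Psmb5, with a log2 difference of -0.29 (adjusted p = 0.0744), was the nearest to the threshold among the others. Between the sexes at baseline, limma called 0 members (9 at an unadjusted p under 0.05), where 0.669% of all genes passed (0.238% higher and 0.431% lower in males), and the interaction of strain and sex called 0 (4 at an unadjusted p under 0.05) of the members and 0 of all genes.

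Sex did not separate the responses at the threshold. For the difference of the hyperoxia response between males and females, limma called 0 of 42 members (9 at an unadjusted p under 0.05), where 0.0368% of all genes passed, 0.0306% with the larger value in males and 0.00613% in females. The member nearest to the threshold was Psme2, which ranged from 17.1 to 28.6 FPKM (median 20.4) in room air and from 7.32 to 15.1 FPKM (median 8.70) in hyperoxia in males, and from 10.3 to 16.4 FPKM (median 14.9) and from 7.35 to 18.9 FPKM (median 14.9) in females. The male values separated by air and the female values overlapped, and the difference between the sexes (male minus female) was -1.05 ± 0.24 with an adjusted p of 0.102. In ATG mice, limma again called 0 members for this difference (7 at an unadjusted p under 0.05), where 0.197% of all genes passed.

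ATG, whose target thioredoxin reductase keeps thioredoxin reduced, was compared with saline first in room air. No member passed the test there (limma, 0 of 42, 1 at an unadjusted p under 0.05), where 0.0185% of all genes passed (0.0123% higher and 0.00616% lower). All log2 differences of the members lay between -0.15 and 0.15. In hyperoxia, 8 members were higher in ATG than in saline mice, where 5.47% of all genes passed, 3.89% higher and 1.58% lower. Among them were 3 chaperones of the core, Psmg3 (0.35), Psmg1 (0.33) and Psmg2 (0.29), the deubiquitinase Psmd14 (0.23), the active site subunits Psmb5 (0.23) and Psmb7 (0.15), the ATPase Psmc6 (0.20) and the activator Psme1 (0.24). Psmg2 ranged from 12.6 to 16.2 FPKM (median 14) in saline and from 15.3 to 20.1 FPKM (median 17.2) in ATG mice in hyperoxia, and most ATG mice lay above the saline mice.

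The difference between the responses to hyperoxia with ATG and with saline passed the test in 4 members, Psmg2 (0.44 ± 0.09, adjusted p = 0.00985), Psmg1 (0.41 ± 0.11, adjusted p = 0.0315), Psme1 (0.35 ± 0.10, adjusted p = 0.0489) and Psmb5 (0.32 ± 0.09, adjusted p = 0.0390), where 2.77% of all genes passed, 1.56% higher and 1.21% lower. The call of Psmg2 was kept without any one of the 48 mice, and those of Psmg1, Psmb5 and Psme1 were lost without 7, 22 and 33 of them. In the comparison within hyperoxia, the calls of Psmb7, Psme1, Psmg3 and Psmb5 were lost without 12, 10, 5 and 4 of 24 mice. With scaling by the median ratio, 1 member in place of 8 was higher with ATG in hyperoxia. Of the cell type markers, 2 of 5 macrophage and 2 of 5 endothelial markers were lower with ATG in hyperoxia, and 1 of 5 alveolar type 1 markers was higher. Of Rn18s-rs5 and Malat1, the gauge of RNA quality, 1 was higher. The part of these cells and of RNA quality in these results was not tested.

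Genes that work with the proteasome were taken as a list of 28 symbols, 27 of which were found. In the 24 saline mice 15 were higher in hyperoxia and 1 lower, so that 59.3% of the list was called. Of all genes tested 60.1% were called, 31.8% higher and 28.3% lower. Ubiquitin receptors and deubiquitinases of the 19S particle rose: Usp14 by 0.81, the receptor Adrm1 by 0.69 and Uchl5 by 0.49. Rad23b, a shuttle that brings ubiquitinated proteins, ranged from 17.9 to 48.4 FPKM (median 36.8) in room air and from 47.7 to 131 FPKM (median 77.9) in hyperoxia, a log2 difference of 1.22 ± 0.11, the largest of the list. Nploc4 (0.81) and Ufd1l (0.45), cofactors of the segregase Vcp, rose, and Vcp itself (0.01) did not pass. The transcription factor Nfe2l1 (0.02, 95% interval -0.13 to 0.17) and the maturation factor Pomp (0.13) did not pass, while Ddi2 (0.72), the protease that activates Nfe2l1, and Nfe2l2 (0.27) rose. In room air Nfe2l2 was at 36.8 and 47.5 FPKM in mice 1 and 3 of C3HM and 63.1 FPKM in mouse 2. C3H males in hyperoxia had 64.1 to 73.6 FPKM. C3H females ranged from 74.4 to 81.6 FPKM in room air and from 71 to 76 FPKM in hyperoxia. In C57B the ranges were 59.9 to 89.5 FPKM and 82.5 to 126 FPKM. The calls of this list were not repeated without mice 1 and 3 of C3HM. Ubb, which encodes ubiquitin, fell by 0.21 on the log2 scale. Also higher were Txnl1, Zfand2a, Ube3c, Ubqln4 and Ubqln1, by 0.20 to 0.65. Shfm1, a small lid subunit outside the naming rule, had a log2 difference of -0.16 (adjusted p = 0.0938).

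In an immunoproteasome Psmb8, Psmb9 and Psmb10 take the places of Psmb5, Psmb6 and Psmb7. They moved against their counterparts, with log2 differences in hyperoxia of -0.64, -1.49 and -1.13. Within C3H 2 of the 3 passed as lower, with log2 differences from -1.07 to -0.20 (12.5% of all genes were lower). Within C57B all 3 were lower, from -1.91 to -1.07 (30% of all genes). The difference between strains (C3H minus C57B) ran from 0.84 to 0.94 and passed for 2 of the 3 (11.5% of all genes). For the ratios of these pairs 1 was added to each FPKM. The ratio Psmb8/Psmb5 ranged from 0.427 to 1.04 (median 0.710) in saline room air and from 0.190 to 0.494 (median 0.324) in saline hyperoxia. Psmb9/Psmb6 ranged from 0.272 to 0.858 (median 0.340) and from 0.0577 to 0.181 (median 0.103), and Psmb10/Psmb7 ranged from 0.692 to 1.48 (median 0.831) and from 0.126 to 0.449 (median 0.253). Ratios in hyperoxia were lower, by 1.20, 1.87 and 1.87 on the log2 scale, with an exact p of 1.25e-05 in each (two-sided exact permutation of air within strain and sex, 160000 arrangements, the smallest p they allow) and an adjusted p of 3.75e-05 over 9 tests. The other 6 tests, of ATG in room air and of strain at baseline, had adjusted p between 0.156 and 0.772 by the same exact test.

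In hyperoxia the strains were apart in these ratios. Psmb8/Psmb5 ranged from 0.402 to 0.494 (median 0.427) in C3H and from 0.190 to 0.247 (median 0.211) in C57B saline mice, and from 0.441 to 0.652 (median 0.475) and from 0.161 to 0.229 (median 0.189) in ATG mice. The ranges of the strains did not overlap in either set, and the same held for the 2 other ratios. These ratios were not tested between strains in hyperoxia. T cell and B cell markers were lower in hyperoxia (4 of 4 each). Between the strains in saline hyperoxia, 3 of 4 T cell markers were higher in C3H, and 0 of 4 B cell markers passed the test. The part of these cells in the ratios was not tested, nor was that of the sequence Psmb5 shares with other genes.

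**Figure D5:**
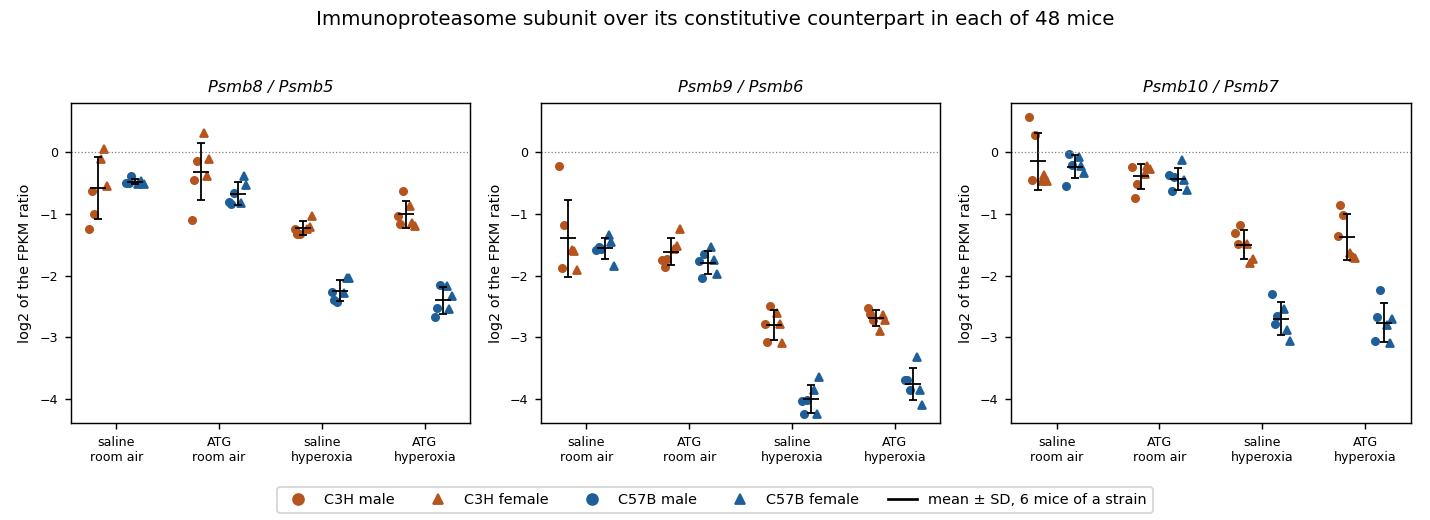
Log2 of the FPKM ratio (y axis) of an immunoproteasome subunit to its constitutive counterpart in each of 48 mice by injection and air; circles are males, triangles females, black bars the mean ± SD of the 6 mice of a strain, and the dotted line marks equal FPKM. Hyperoxia mice lie lower in all 3 panels, and C57B mice in hyperoxia lie lowest.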

How the data were processed

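Lung RNA of 48 mice was sequenced, 1 library per mouse. Per the labels, a directional mRNA preparation was read on a HiSeq2000, and the study's methods name another kit. The deposited FPKM values were made by the authors with GSNAP, SAMtools and Cufflinks on mm10 (annotation and the handling of reads that map to several genes are not given in the sources used here). Groups came from the labels. No columns of values were left without a sample. Depth cannot be read from FPKM, and Akap5, whose estimate failed in 7 mice, was left out.

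Values were tested as log2(FPKM + 1) in limma 3.58.1 (R 4.3.3), with a mean per group, a variance trend, genes with at least 1 FPKM in at least 3 of the mice fitted, Benjamini-Hochberg adjustment over all of these and a threshold of 0.05. Fold changes are on this scale and understate those of low genes. Ratios were tested by exact permutation in Python 3.11.15 (scipy 1.17.1). Sequence shared with other genes was the share of 30-base stretches (1 in 4 sampled) found in GENCODE M21 transcripts of other genes. The limma tests were also run on simulated data with independent noise in each gene. Few genes were changed there, by more than most members differed here, so no support for the calls is drawn from it. No 2 mice had identical values. The labels do not say that mice of a group came from separate cages or litters.

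In each comparison, members past the threshold could be named, with full values for the 5 largest differences in each direction and for Psmb5, Psmb6, Psmb7, Psmd4, Psmd14, Psmc4, Psma3, Psme1 to Psme4, Psmf1 and Psmg1 whatever their result. Psmc6, Psmd2, Psma6, Psmd12 and Psmg2 were named beyond this after their values were seen. Members and lists were chosen with earlier results of these data known. Some genes of the list of partners are not reported here. Alternatives run were a pseudocount of 0.1, no filter, a stricter filter at 5 FPKM, quantile normalization, median ratio scaling, no variance trend, all 48 mice in 1 fit, each mouse left out in turn and the baseline C3H males left out. None of these was run for the list of partners or for Psmb8, Psmb9 and Psmb10 singly. The comparison in the ATG mice, and the removal of C3HM mice 1 and 3, were chosen after seeing the data.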

Additional observations from a re-analysis of the deposited data

Results flagged for a closer look

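The response to hyperoxia differed between the strains, by the interaction test, in Psmd1 (C3H minus C57B, -0.53 on the log2 scale), Psmd11 (-0.35) and Psmg1 (0.52). It differed between ATG and saline mice in Psmb5 (0.32), Psme1 (0.35), Psmg1 (0.41) and Psmg2 (0.44). Of all genes, 11.5% passed the test between strains and 2.77% that between ATG and saline. Only the calls of Psmd1 and Psmg2 were kept whichever single mouse was left out.

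In 56 sets of 6 mice (the summed FPKM of each role group by strain, injection and air), a single mouse stood apart from the other 5 in 2 sets, where chance flags about 1 in 20. The alpha ring summed to 434 FPKM in mouse 28, a C3H female given ATG in room air, and to between 496 and 527 FPKM in the other 5, and the gap was 0.673 of the whole range, beyond the 95% critical value of Dixon's test. The non-ATPase subunits of the base summed to 202 FPKM in mouse 21, a C57B male in saline hyperoxia, and to between 224 and 236 FPKM in the other 5, a gap of 0.643 of the range.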

How the results depend on the processing

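Of 126 pairs of member and comparison past the threshold, 72 stayed past it in every alternative run. The 33 members that rose and the 2 that fell in hyperoxia were 26 and 2 with quantile normalization and 28 and 2 with median ratio scaling, where Psma1 reversed with the former (-0.0321), and 40 and 0 in the ATG mice. With 1 mouse left out they were 32 to 34 and 2. The other counts moved more, and where no alternative's construction shows it, the cause was not tested.

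Within C3H the 25 higher were 14 with median ratio scaling and 20 to 28 with 1 mouse left out. The 1 lower (Psme1) was 0 without a filter, without the trend, without the baseline C3H males, without C3HM mice 1 and 3 and in ATG mice (Psme1 0.16), and 0 to 1 with 1 mouse left out. Within C57B the 32 higher were 23 with quantile normalization, 34 without the baseline C3H males and 37 in ATG mice, and with 1 mouse left out 27 to 33 rose and 2 to 3 fell. Strain by hyperoxia gave 0 on the side of C3H without a filter and with quantile or median ratio scaling, 2 in ATG mice and 0 to 2 with 1 mouse left out, and on the side of C57B 11 with median ratio scaling, 7 with all 48 mice, 8 without C3HM mice 1 and 3 and 1 to 5 with 1 mouse left out (5 without C3HM mouse 2). Sex by hyperoxia gave 2 lower with all 48 mice, and 0 to 1 higher and 0 to 3 lower with 1 mouse left out.

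Between strains in hyperoxia the 4 higher were 1 with median ratio scaling, 1 without C3H male mouse 9, 2 without C57B female mouse 45 and at most 4. The 11 lower were 15 with median ratio scaling, 6 in ATG mice, 7 to 13 with 1 mouse left out, and 7 without C3H male mouse 7 or C3H female mouse 31 or 32. The 8 higher with ATG in hyperoxia were 5 with quantile and 1 with median ratio scaling, 4 to 9 with 1 mouse left out, 4 without mouse 8 or 36 and 5 without mouse 23, 24 or 45. The 4 members of the ATG by hyperoxia test were 2 without a filter, with median ratio scaling and without the trend, and 1 to 6 with 1 mouse left out. At baseline, strain gave 2 higher with median ratio scaling and with all 48 mice, 0 without C3HM mice 1 and 3, 1 lower with quantile normalization, 3 lower with all 48 mice, and 0 to 3 higher and 0 to 5 lower with 1 mouse left out. Sex gave 6 higher and 1 lower with all 48 mice, and 0 to 7 and 0 to 4 with 1 mouse left out. Strain by sex gave 4 lower with all 48 mice, and 0 to 1 higher and 0 to 11 lower with 1 mouse left out.

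The ratios in hyperoxia kept their direction, with ranges of -1.24 to -1.15 (Psmb8/Psmb5), -1.97 to -1.76 (Psmb9/Psmb6) and -1.94 to -1.82 (Psmb10/Psmb7). For ATG in room air Psmb8/Psmb5 ran from -0.0171 to 0.10 and turned negative without mouse 1, 6, 27 or 28. For strain at baseline, Psmb9/Psmb6 (-0.0591 to 0.347) and Psmb10/Psmb7 (-0.0247 to 0.228) turned negative without C3HM mouse 1. None of these passed the test. The share of higher among all genes called was 66.9% within C3H (50.8% with quantile, 48.3% with median ratio scaling), 75.6% for strain by hyperoxia (49.1%, 46.5%), 71.1% for ATG in hyperoxia (45.6%, 41.0%), 56.4% for ATG by hyperoxia (34.7%, 32.9%), 33.2% for strain at baseline (51.2%, 47.9%) and 35.6% for sex at baseline (55.2%, 49.3%). No paired analysis was possible because each mouse has a number of its own.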
